A study of Mus musculus with 12 samples.

Results

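The genes described here are 9 enzymes and enzyme subunits of the tricarboxylic acid (TCA) cycle, Cs, Idh3a, Idh3b, Idh3g, Ogdh, Dlst, Suclg1, Fh1 and Mdh2, out of 19937 genes measured on the same arrays. They were taken by name, and each was read by 1 row of the value table, so all 9 are accounted for and no row had to be chosen. White adipose tissue of male mice aged 18 weeks was profiled on 12 arrays of 1 colour. The animals were wild type (WT) or carried a knockout of Ahnak (KO), a gene for a very large scaffold protein, and were fed for 12 weeks on a regular chow or on a diet high in fat (HFD, 60% fat, 20% carbohydrate and 20% protein). Each genotype was measured on each diet, which gave 4 groups of 3 arrays. The labels name neither the fat depot nor the strain, give no promoter or tissue restriction for the knockout, and do not say that each replicate came from its own animal, so every p-value rests on the spread among these arrays, which may be technical.

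The TCA cycle runs in the mitochondrial matrix. It oxidises the acetyl group of acetyl-CoA, which comes from glucose, fatty acids and amino acids, and passes the electrons to the respiratory chain. In white adipocytes the cycle also supplies citrate, which leaves the mitochondrion and gives the cytosol acetyl-CoA for fatty acid synthesis. Values below are log2 intensities as deposited, and a difference is a difference of group means ± the standard error (SE) of the fit, with n = 3 arrays a group. "Rose", "fell", "higher" and "lower" are kept for differences with a Benjamini-Hochberg adjusted p under 0.05 over all 19937 genes in limma. The number of arrays limits the precision, and levels of different genes were not compared, since rows differ in how brightly they hybridise.

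The adipocyte markers lay at a mean log2 level of 12.08 to 12.71 on the 12 arrays. The defining genes of the labelled tissue were thus bright on every array. Within a group, the correlation between arrays over genes was 0.985 to 0.996. Ahnak, read by 1 row, lay between 9.27 and 9.58 on the 6 KO arrays and between 9.68 and 10.27 on the 6 WT arrays. The KO difference was -0.69 ± 0.13 on chow (adjusted p = 0.38) and -0.52 ± 0.13 on HFD (adjusted p = 0.021). On HFD it did not pass when replicate 3 of WT, or replicate 2 or 3 of KO, was left out (adjusted p = 0.062 to 0.074), nor in a fit of the 6 HFD arrays alone (adjusted p = 0.099). The sources used here do not say whether its probes lie in the targeted part of the gene.

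In WT tissue, 6 of the 9 enzymes fell on HFD and none rose, beside 12.3% and 11.8% of all genes. In KO tissue 1 of 9 fell on HFD, beside 3.54% of all genes. On HFD, 4 of the 9 were higher in KO than in WT and none was lower, beside 6.65% and 6.85% of all genes. These 4 calls were lost in a fit of the 6 HFD arrays alone. On chow no enzyme passed the test between the genotypes, and 0% of all genes did. No enzyme passed the test of whether the KO difference depended on the diet. In 8 of the 9 the group means stood in the same order, from KO on chow through WT on chow and KO on HFD to WT on HFD. The exception was Idh3a, whose mean was highest in WT on HFD.

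**Figure D1:**
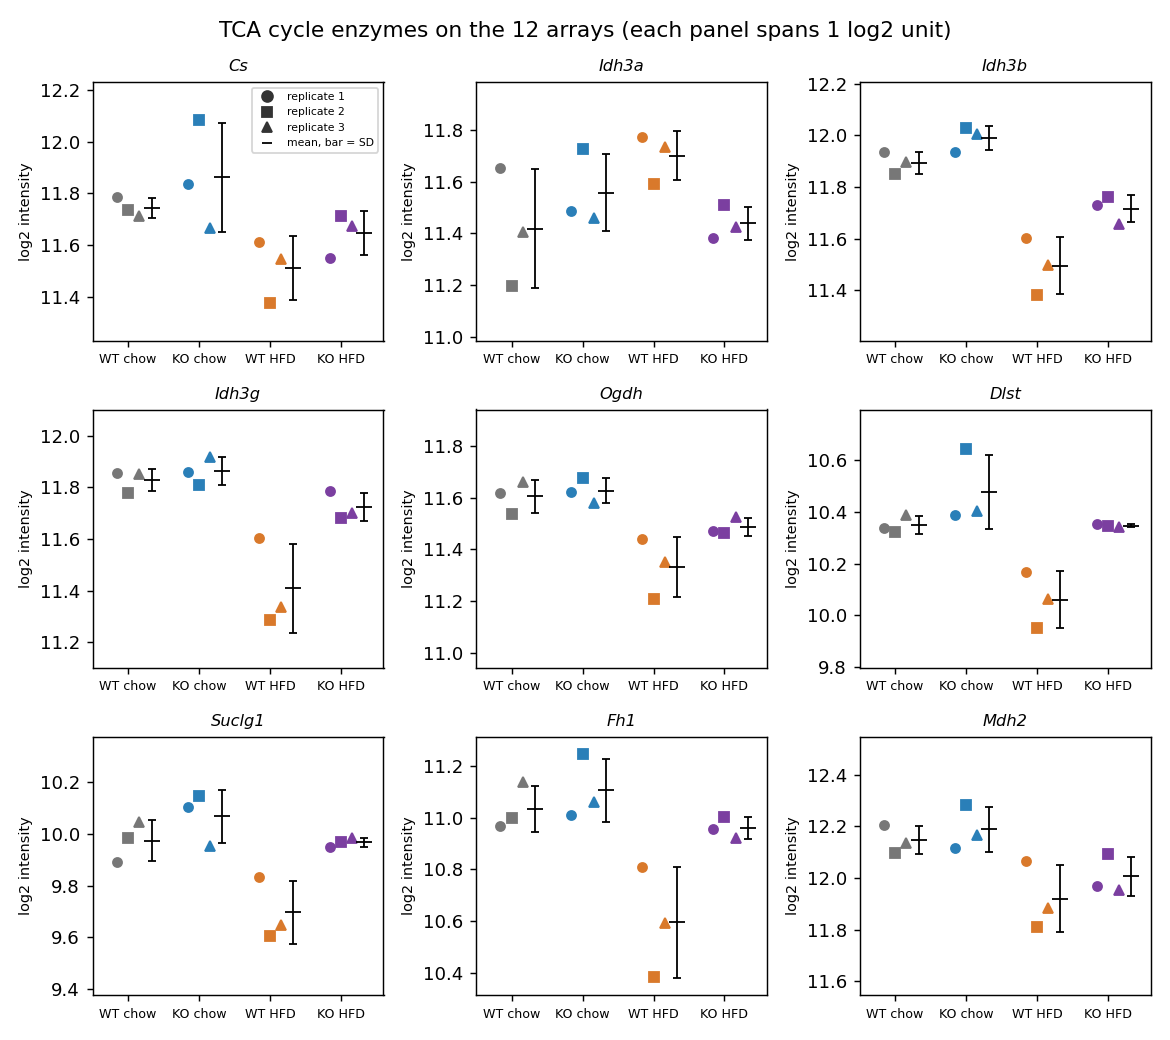
Log2 intensity (y axis) of the 9 enzymes in the 4 groups (x axis), with 1 symbol per array, the mean and an SD bar, and a span of 1 log2 unit in each panel. WT on HFD has the lowest mean in 8 panels, while in the panel of Idh3a its arrays lie at 11.59 to 11.77, above the 3 KO HFD arrays.

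Neighbouring groups in that order were not all distinct. The arrays of KO and WT on chow were separate for 2 of the 9 genes and for 11.5% of all genes. Those of WT on chow and KO on HFD were separate for 3 of the 9, and the share over all genes was not counted for this pair. The WT HFD arrays, at the low end, were separate from the KO HFD arrays for 7 of the 9 and for 30.9% of all genes. From the WT chow arrays they were separate for 8 of the 9 and for 38.8% of all genes. For Idh3a the separation of KO from WT on HFD ran the other way.

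The diet comparison in WT asks what the high fat diet does to adipose tissue with Ahnak intact. The 6 enzymes that fell were Idh3b, Idh3g, Ogdh, Dlst, Suclg1 and Fh1, with a median difference of -0.28 over all 9, against -0.03 over all genes. Of all genes 12.3% fell, 11.8% rose and 24.1% changed in either direction. Unadjusted, 9 of 9 had a p under 0.05, as did 35.2% of all genes, and 1 of 9 differences was above 0, where 44.3% of all genes were. The 2 groups' arrays did not overlap for 8 of the 9 enzymes and for 38.8% of all genes. The falls of Fh1, Idh3b and Idh3g passed in each of 19 other settings. The count was 3 without WT chow replicate 3, without WT HFD replicate 2 and in a fit of the 6 WT arrays alone.

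The comparison of KO with WT on HFD asks what the loss of Ahnak changes under the dietary load. Idh3g, Dlst, Suclg1 and Fh1 were higher in KO. The median difference over the 9 was 0.22, against 0.02 over all genes. Of all genes 6.65% rose, 6.85% fell and 13.5% changed in either direction. The difference was above 0 for 8 of 9 enzymes and for 54.3% of all genes. The arrays of KO and WT did not overlap for 7 of 9 enzymes, Idh3a among them on the opposite side, and for 30.9% of all genes. The 4 calls lay close to the threshold. In limma 0 of the 9 passed when replicate 2 or 3 of WT or any of the 3 KO arrays on HFD was left out, or when the 6 HFD arrays were fitted alone. Leaving out replicates 1, 2 and 3 of WT on chow gave 1, 1 and 2. With all 12 arrays, 6 of the 9 had an unadjusted p under 0.05, as did 26.8% of all genes. This comparison and the diet comparison in WT share the 3 WT HFD arrays, so their values are not independent of each other.

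On chow the differences between KO and WT were small. All 9 were above 0, between 0.02 and 0.14, where 53.6% of all genes were above 0. None of the 9 passed in limma, 0 had an unadjusted p under 0.05, and 0 passed in any other setting. Of all genes 0% passed, and 5.60% had an unadjusted p under 0.05. The arrays did not overlap for 2 of the 9, Idh3b and Dlst, and for 11.5% of all genes. For the 4 enzymes that were higher in KO on HFD, the 95% interval of the chow difference reached up to 0.22 for Idh3g, 0.27 for Suclg1, 0.30 for Fh1 and 0.31 for Dlst.

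In KO tissue Idh3b was the enzyme that fell on HFD. All 9 differences were below 0, from -0.10 to -0.27, with a median of -0.14. Of all genes 3.54% fell, 2.80% rose and 6.34% changed, and 48.2% of differences were above 0. Unadjusted, 2 of 9 had a p under 0.05, as did 22.8% of all genes. The arrays of the 2 diets did not overlap for 6 of the 9 and for 28.8% of all genes. Idh3b no longer passed when any 1 of the 6 chow arrays, any KO array on HFD or replicate 3 of WT on HFD was left out, or when the KO arrays were fitted alone (adjusted p up to 0.17).

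**Figure D2:**
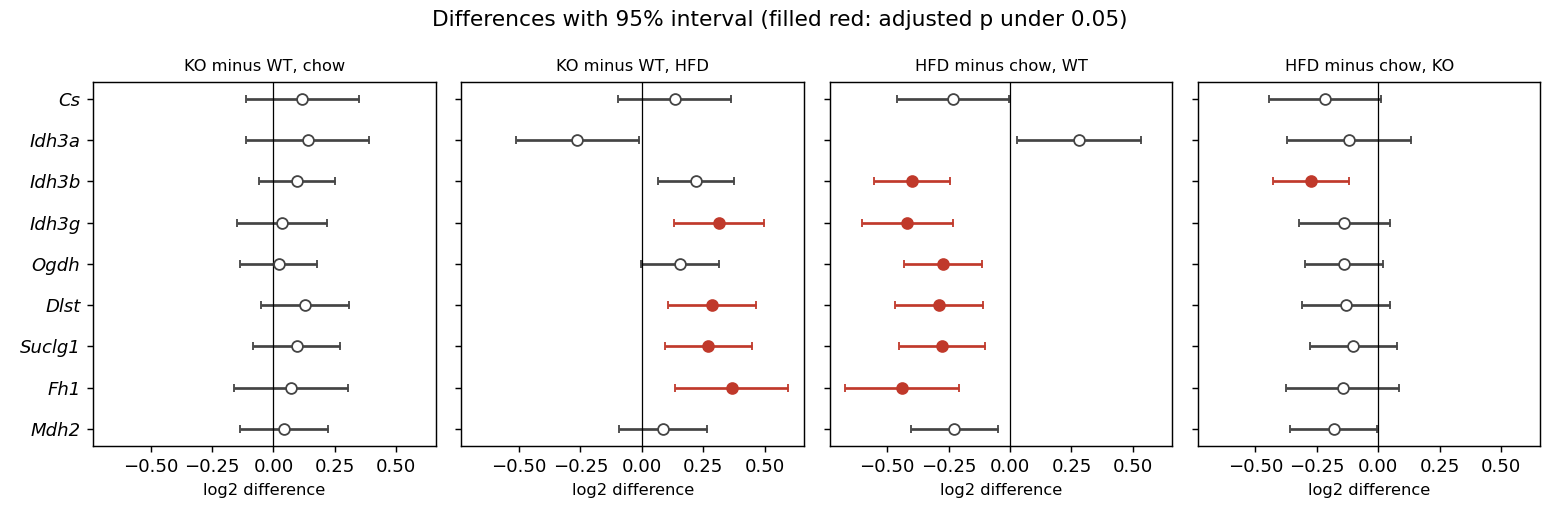
Log2 difference (x axis) of each enzyme (y axis) in 4 comparisons, as the point estimate with its 95% interval; filled red points passed at an adjusted p under 0.05. For HFD minus chow in WT 6 red points lie left of 0, 4 lie right of 0 for KO minus WT on HFD, and Idh3a lies on the other side of 0 in both panels.

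Whether the KO difference itself depended on the diet was tested as an interaction. In limma 0 of 9 passed, and 2 had an unadjusted p under 0.05, as did 17.5% of all genes. Those 2 were Idh3a (-0.40 ± 0.16, adjusted p = 0.24) and Idh3g (0.28 ± 0.12, adjusted p = 0.26). Of all genes 0.00502%, which is 1 gene, passed. The interaction was above 0 for 8 of 9 enzymes and for 51.3% of all genes. With all arrays and equal weights, the KO differences on HFD are therefore not shown to differ from those on chow. The interaction of Idh3g passed without WT HFD replicate 1 (0.38, adjusted p = 0.029) and with array weights (0.35, adjusted p = 0.023). The array weights did not converge and gave WT HFD replicate 3 a weight of 20.0, against 0.376 to 1.68 for the others. Calls with array weights, here and below, are therefore not reliable.

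Cs encodes citrate synthase, which joins acetyl-CoA to oxaloacetate and opens the cycle. On the chow arrays it lay at 11.79, 11.74 and 11.71 in WT and at 11.84, 12.09 and 11.67 in KO. On HFD it lay at 11.61, 11.37 and 11.55 in WT and at 11.55, 11.71 and 11.67 in KO. The WT HFD arrays were below all WT chow arrays but overlapped with those of KO on HFD. Its differences were -0.23 ± 0.10 for HFD in WT (adjusted p = 0.13) and 0.13 ± 0.10 for KO on HFD (adjusted p = 0.48).

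Isocitrate dehydrogenase 3, the NAD-dependent enzyme that oxidises isocitrate to 2-oxoglutarate, is built from a catalytic alpha subunit (Idh3a) and the beta and gamma subunits (Idh3b and Idh3g). Idh3b lay at 11.93, 11.85 and 11.89 in WT on chow and at 11.94, 12.03 and 12.00 in KO on chow. It lay at 11.60, 11.38 and 11.50 in WT on HFD and at 11.73, 11.76 and 11.66 in KO on HFD. Each HFD array was below each chow array, and WT was below KO within HFD. Idh3b fell by 0.40 ± 0.07 on HFD in WT (adjusted p = 0.0029), a change of -24.2%, and fell by 0.27 ± 0.07 in KO (adjusted p = 0.043). The KO difference on HFD was 0.22 ± 0.07 (adjusted p = 0.060). It passed when genes with dim rows were left out (adjusted p = 0.037) and with a variance prior that follows the intensity (0.041). It also passed without WT HFD replicate 1 (0.022) and with the array weights that did not converge (0.0036).

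Idh3g lay at 11.85, 11.78 and 11.85 in WT on chow and at 11.86, 11.81 and 11.92 in KO on chow. On HFD its arrays were at 11.60, 11.29 and 11.34 in WT and at 11.79, 11.68 and 11.70 in KO. The chow genotypes overlapped, the KO HFD arrays were below all KO chow arrays, and the 3 WT HFD arrays were below all others. Idh3g fell by 0.42 ± 0.08 on HFD in WT (adjusted p = 0.0053), a change of -25.2%, and on HFD it was 0.31 ± 0.08 higher in KO (adjusted p = 0.032, 24.4% higher). The latter call was lost in 6 of 19 other settings (adjusted p up to 0.12). The diet difference in KO was -0.14 ± 0.08 (adjusted p = 0.36).

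Idh3a did not follow its partner subunits. It lay at 11.65, 11.20 and 11.40 in WT on chow and at 11.49, 11.73 and 11.46 in KO on chow, with a wide spread in both. On HFD it lay at 11.77, 11.59 and 11.73 in WT and at 11.38, 11.51 and 11.42 in KO. All WT HFD arrays were thus above all KO HFD arrays. The difference was 0.28 ± 0.11 for HFD in WT (adjusted p = 0.10) and -0.26 ± 0.11 for KO on HFD (adjusted p = 0.17), so neither passed. The former passed without WT chow replicate 1 (0.40, adjusted p = 0.028) and with the array weights that did not converge (0.24, adjusted p = 0.025). The latter passed with those weights alone (-0.29, adjusted p = 0.013).

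The unequal change within the enzyme was larger than the change of Idh3a alone. The Idh3a value minus the mean of Idh3b and Idh3g was taken on each array and set to 0 at the mean of WT on chow, a quantity chosen after the values had been seen and given without a test. In WT on HFD it was 0.61, 0.70 and 0.76. In KO on HFD it was 0.07, 0.23 and 0.18. The 6 chow arrays ranged from -0.18 to 0.25, so the WT HFD arrays stood above the other 9. This shows unequal change of the subunits' RNA and not that any subunit was constant.

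2-Oxoglutarate dehydrogenase turns 2-oxoglutarate into succinyl-CoA, with Ogdh as its first component and Dlst as the succinyl-transferring core. Ogdh ranged from 11.54 to 11.66 in WT and from 11.58 to 11.68 in KO on chow, and on HFD from 11.21 to 11.44 in WT and from 11.46 to 11.53 in KO. The WT HFD arrays were the lowest, and KO on HFD lay between them and the chow arrays. Ogdh fell by 0.27 ± 0.07 on HFD in WT (adjusted p = 0.018). The call was lost without WT chow replicate 1 or 3, without WT HFD replicate 2 and in a fit of the 6 WT arrays (adjusted p = 0.054 to 0.071). The KO difference on HFD was 0.15 ± 0.07 (adjusted p = 0.20).

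Dlst lay at 10.34, 10.32 and 10.39 in WT on chow and at 10.39, 10.64 and 10.40 in KO on chow. On HFD it lay at 10.17, 9.95 and 10.06 in WT, and the KO arrays sat close together at 10.35, 10.35 and 10.34. The mean of KO on HFD minus that of WT on chow was -0.0013, and these arrays overlapped. Dlst fell by 0.29 ± 0.08 on HFD in WT (adjusted p = 0.025) and on HFD was 0.29 ± 0.08 higher in KO (adjusted p = 0.040). Over 19 other settings the KO difference stayed between 0.23 and 0.34 and lost its call in 10 (adjusted p up to 0.15), while the diet difference lost its call in 6 (adjusted p up to 0.094).

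Suclg1 encodes the alpha subunit of succinyl-CoA ligase, which makes a nucleoside triphosphate as succinyl-CoA becomes succinate. It lay at 9.89, 9.98 and 10.05 in WT on chow and at 10.10, 10.15 and 9.95 in KO on chow. On HFD it lay at 9.83, 9.61 and 9.65 in WT and at 9.95, 9.97 and 9.98 in KO. The WT HFD arrays were below all others, whereas KO on HFD overlapped with both chow groups. Suclg1 fell by 0.28 ± 0.08 on HFD in WT (adjusted p = 0.028) and on HFD was 0.27 ± 0.08 higher in KO (adjusted p = 0.046). These calls were lost in 6 and 12 of 19 other settings (adjusted p up to 0.098 and 0.17), with differences of -0.35 to -0.23 and 0.23 to 0.34.

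The alpha subunit pairs with a beta subunit that sets the nucleotide. Suclg2 encodes the GDP-specific and Sucla2 the ADP-specific form; Sucla2 is named here after its values were seen. Suclg2 lay at 9.66, 9.08 and 9.42 in WT on HFD, below 10.12 to 10.19 in WT on chow and below 10.00 to 10.14 in KO on HFD. It fell by 0.78 ± 0.12 on HFD in WT (adjusted p = 0.0017) and on HFD was 0.70 ± 0.12 higher in KO (adjusted p = 0.0066). Sucla2 instead rose in WT, from 10.55, 10.52 and 10.46 on chow to 10.69, 10.75 and 10.85 on HFD (0.25 ± 0.08, adjusted p = 0.033). Its KO difference on HFD was -0.09 ± 0.08 (adjusted p = 0.54). Suclg2 minus Sucla2, set to 0 at the mean of WT on chow and given without a test, was -0.69, -1.32 and -1.08 in WT on HFD and -0.09, -0.40 and -0.25 in KO on HFD. The chow arrays ranged from -0.081 to 0.11. The WT HFD arrays were below all others, while the highest KO HFD array, at -0.095, was barely below the lowest chow array.

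**Figure D3:**
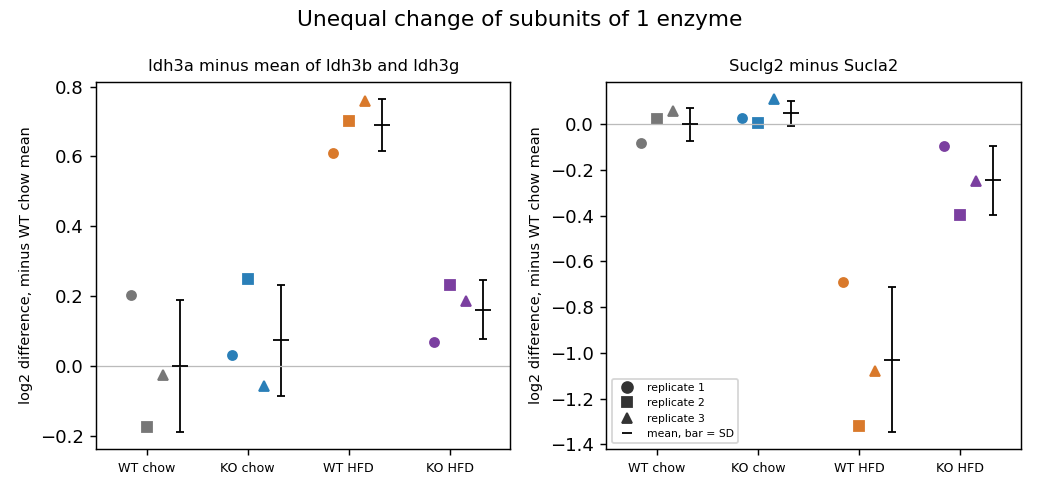
Within-array log2 difference between subunits of 1 enzyme (y axis, minus the mean of WT on chow) in the 4 groups (x axis), with 1 symbol per array, the mean and an SD bar. Idh3a against Idh3b and Idh3g stands at 0.61 to 0.76 in WT on HFD and at 0.25 or below elsewhere, and Suclg2 against Sucla2 at -1.32 to -0.69 in WT on HFD.

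Fh1, the fumarase that hydrates fumarate to malate, showed the widest difference of the 9 in WT. It lay at 10.97, 11.00 and 11.14 in WT on chow and at 11.01, 11.25 and 11.06 in KO on chow. On HFD it lay at 10.81, 10.38 and 10.59 in WT and at 10.96, 11.00 and 10.92 in KO. Every WT HFD array was below every other array. Fh1 fell by 0.44 ± 0.11 on HFD in WT (adjusted p = 0.012), a change of -26.3%, and on HFD was 0.37 ± 0.11 higher in KO (adjusted p = 0.041, 28.9% higher). The KO call was lost in 10 of 19 other settings, with differences of 0.26 to 0.47 and adjusted p up to 0.15.

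Mdh2, the mitochondrial malate dehydrogenase that restores oxaloacetate, ranged from 12.10 to 12.21 in WT and from 12.11 to 12.28 in KO on chow. On HFD it ranged from 11.81 to 12.06 in WT and from 11.95 to 12.09 in KO. The genotypes overlapped on both diets. Its differences were -0.23 ± 0.08 for HFD in WT (adjusted p = 0.066), 0.09 ± 0.08 for KO on HFD (adjusted p = 0.57) and -0.18 ± 0.08 for HFD in KO (adjusted p = 0.21). The difference in WT passed without dim rows (adjusted p = 0.046), with quantile normalization (0.038) and with the variance prior that follows the intensity (0.049). It also passed without WT HFD replicate 1 (0.019) and with the array weights that did not converge (0.00081).

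The start regions of Dlst, Idh3g, Fh1 and Suclg1, which fell on HFD in WT and were higher in KO on HFD, are printed here because these genes moved together. Idh3b is added as the enzyme whose fall on HFD passed in both genotypes. Its call in KO was lost in 12 of 19 other settings (adjusted p up to 0.17). The windows are from RefSeq, build GRCm38.p6, and run from 250 bases before to 50 after the annotated start, 5′ to 3′ on the gene's strand. RefSeq windows were matched by symbol for 8 of the 9 genes, all but Idh3a. Capitals mark exact matches to CCGGAAG, a core of the ETS factor GABPA, or to its reverse complement CTTCCGG.
Dlst (chr12:85110583-85110882, plus strand): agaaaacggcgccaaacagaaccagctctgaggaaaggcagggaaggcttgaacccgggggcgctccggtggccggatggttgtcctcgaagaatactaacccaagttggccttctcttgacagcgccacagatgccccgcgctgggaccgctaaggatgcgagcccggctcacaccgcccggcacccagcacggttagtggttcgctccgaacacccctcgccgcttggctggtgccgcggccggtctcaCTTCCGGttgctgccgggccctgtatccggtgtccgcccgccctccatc
Idh3b (chr2:130284402-130284701, minus strand): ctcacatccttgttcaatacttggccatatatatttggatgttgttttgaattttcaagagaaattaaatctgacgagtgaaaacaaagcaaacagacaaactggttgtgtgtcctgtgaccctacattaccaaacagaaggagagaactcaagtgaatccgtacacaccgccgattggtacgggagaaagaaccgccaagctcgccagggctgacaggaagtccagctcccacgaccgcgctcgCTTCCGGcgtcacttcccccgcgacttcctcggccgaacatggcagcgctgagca
Idh3g (chrX:73786848-73787147, minus strand): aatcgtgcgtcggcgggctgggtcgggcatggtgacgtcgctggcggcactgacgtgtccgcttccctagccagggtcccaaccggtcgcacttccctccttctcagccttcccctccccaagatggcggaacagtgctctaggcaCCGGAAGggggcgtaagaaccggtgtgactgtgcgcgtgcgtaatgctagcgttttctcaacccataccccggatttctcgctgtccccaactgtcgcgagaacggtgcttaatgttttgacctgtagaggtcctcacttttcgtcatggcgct
Fh1 (chr1:175625586-175625885, minus strand): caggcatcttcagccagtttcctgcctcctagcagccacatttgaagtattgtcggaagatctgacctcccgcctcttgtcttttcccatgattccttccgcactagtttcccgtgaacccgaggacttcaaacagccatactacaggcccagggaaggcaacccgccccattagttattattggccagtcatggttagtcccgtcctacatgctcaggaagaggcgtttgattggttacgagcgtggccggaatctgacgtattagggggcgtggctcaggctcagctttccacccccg
Suclg1 (chr6:73248255-73248554, plus strand): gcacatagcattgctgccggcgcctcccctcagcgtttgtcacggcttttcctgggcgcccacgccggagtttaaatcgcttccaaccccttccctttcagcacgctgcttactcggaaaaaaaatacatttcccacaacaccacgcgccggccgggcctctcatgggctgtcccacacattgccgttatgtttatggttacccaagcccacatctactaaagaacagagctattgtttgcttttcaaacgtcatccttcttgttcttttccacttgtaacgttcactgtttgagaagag

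The GABPA core was present in 3 of the 8 genes, Dlst, Idh3b and Idh3g, where 9.93% of the 27025 genes with a window held it. The core holds a CG pair, and the windows of these genes hold 28, 18 and 27 such pairs. Over all windows the median is 7 and the upper quartile 20, and the shares given here were not matched for this. Its first base was at position 2 in Dlst, -5 in Idh3b and -104 in Idh3g, counted from the start with no position 0. Fh1 and Suclg1 held no match to any motif searched in these windows. The others were TCAAGGTCA, a site of the oestrogen-related receptors (ERR), and its core AAGGTCA, and GCGCATGC and the shorter TGCGCA of nuclear respiratory factor NRF1, each read on both strands. The ERR site was in none of the 8 genes and in 0.466% of all genes, and its core in Ogdh and in 5.38%. The NRF1 letters GCGCATGC were in Ogdh and in 3.05%, and TGCGCA in Ogdh and Mdh2 and in 8.79%. Ogdh alone of the 8 had several windows, and a gene counted if any of its windows held a match. Its ERR core and its NRF1 letters lie in different windows. The ERR site contains its core, and both NRF1 strings overlap in the windows of Ogdh that hold them. A match is a string of letters, not a bound site.

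The other subunits of the cycle were mostly lower on HFD in WT as well. Of 9 measured, 7 fell and 1 rose on HFD in WT, with a median of -0.40, where 12.3% of all genes fell. For KO against WT on HFD 4 were higher and none lower, with a median of 0.24, where 6.65% of all genes were higher. The count of 4 was 2 when replicate 2 or 3 of WT or replicate 1 of KO on HFD was left out. Idh2, the mitochondrial NADP-dependent isocitrate dehydrogenase, lay at 10.24, 9.69 and 9.83 in WT and at 10.65, 10.47 and 10.50 in KO on HFD (0.62 ± 0.12, adjusted p = 0.0099). Sdha and Sdhb, the flavoprotein and iron-sulfur subunits of succinate dehydrogenase, were 0.40 ± 0.10 and 0.30 ± 0.08 higher in KO on HFD (adjusted p = 0.024 and 0.032). On HFD in WT they fell by 0.45 ± 0.10 and 0.44 ± 0.08 (adjusted p = 0.0091 and 0.0037).

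Pyruvate enters the cycle through pyruvate dehydrogenase, which the Pdk kinases switch off. Of 12 genes of this step (Mpc2 was not analysed here), 6 fell on HFD in WT (12.3% of all genes fell) and 4 were higher in KO on HFD (6.65% of all genes), with none in the other direction. The latter count was 1 when replicate 2 or 3 of WT or replicate 1 or 3 of KO on HFD was left out. The 4 were the dehydrogenase subunits Pdha1 (0.39 ± 0.11, adjusted p = 0.038) and Pdhb (0.41 ± 0.11, adjusted p = 0.032) and the kinases Pdk2 (0.85 ± 0.17, adjusted p = 0.010) and Pdk3 (0.53 ± 0.15, adjusted p = 0.035). The related kinase Pdk4, named after its values were seen, had a difference of -0.34 ± 0.31 (adjusted p = 0.56). Pdha1 lay at 11.78, 11.33 and 11.50 in WT on HFD and at 11.95, 11.97 and 11.86 in KO on HFD, both below the 12.06 to 12.57 of the chow arrays, and it fell on HFD in WT (-0.61 ± 0.11) and in KO (-0.49 ± 0.11, adjusted p = 0.030).

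Genes of mitochondrial content and their regulators gave like counts. Of 14 content genes (Phb was not analysed here), 6 fell on HFD in WT and 5 were higher in KO on HFD, beside 12.3% and 6.65% of all genes. The count of 5 was 0 in limma when replicate 2 or 3 of WT or replicate 1 of KO on HFD was left out, 1 without replicate 3 of KO and 2 without its replicate 2. Examples of the latter were Uqcrc2 of complex III (0.29 ± 0.07, adjusted p = 0.021), Timm44 of the import motor (0.25 ± 0.06, adjusted p = 0.025), Cox4i1 of complex IV (0.27 ± 0.07, adjusted p = 0.026) and Ndufs1 of complex I (0.35 ± 0.09, adjusted p = 0.032). Of 11 regulators, 5 fell on HFD in WT and 3 were higher in KO on HFD, the latter 1 when replicate 2 or 3 of WT or replicate 1 or 3 of KO on HFD was left out. These 3 were Nrip1, a corepressor of oxidative genes (0.69 ± 0.13, adjusted p = 0.010), the mitochondrial deacetylase Sirt3 (0.37 ± 0.09, adjusted p = 0.026) and the transcription factor Tfb2m (0.43 ± 0.12, adjusted p = 0.043). The coactivator Ppargc1a fell by 1.06 ± 0.18 on HFD in WT (adjusted p = 0.0029), and its KO difference on HFD was 0.60 ± 0.18 (adjusted p = 0.053).

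Of 12 genes of cytosolic counterparts, exchange and anaplerosis, 2 fell on HFD in WT and 2 were higher in KO on HFD, beside 12.3% and 6.65% of all genes, so the share that fell was near that of all genes. The 2 higher in KO were Pck1, which draws oxaloacetate toward glycerol phosphate (1.68 ± 0.28, adjusted p = 0.0060), and the cytosolic aconitase Aco1 (0.43 ± 0.07, adjusted p = 0.0071). The malic enzyme Me1 had -0.45 ± 0.14 (adjusted p = 0.058) and the cytosolic transaminase Got1 -0.62 ± 0.23 (adjusted p = 0.10). Over these 5 lists 18 of 58 genes were higher in KO on HFD and none was lower. Among the HFD arrays, leaving out replicate 2 or 3 of WT or replicate 1 of KO gave a count of 6, and leaving out replicate 3 of KO gave 8. Leaving out replicate 1 of WT gave 28, of which 1 was lower. In a fit of the 6 HFD arrays alone it was 0.

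**Figure D4:**
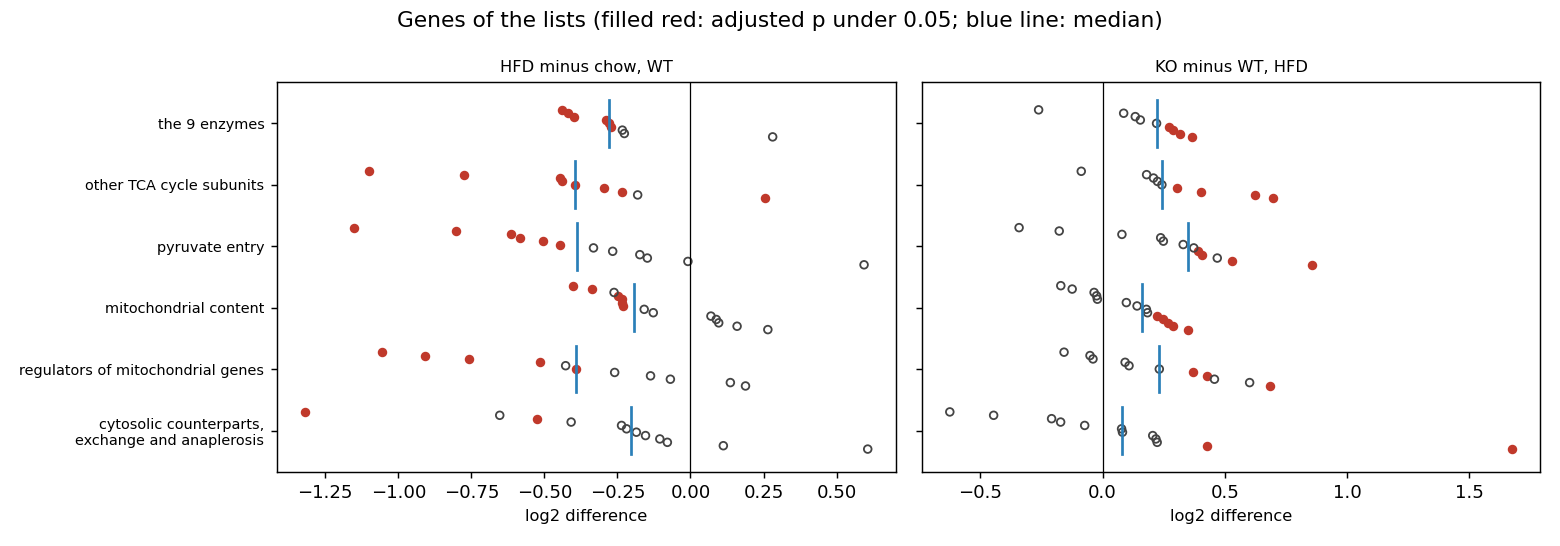
Log2 difference (x axis) of the genes of 6 lists (y axis) for HFD minus chow in WT (left) and KO minus WT on HFD (right); each point is a gene, filled red at an adjusted p under 0.05, and the blue line is the list's median. The medians of all 6 lists are below 0 on the left and above 0 on the right, and the 2 panels share the WT HFD arrays.

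Markers of macrophages and of adipocytes also differed between the groups. On HFD, 10 of 13 macrophage markers were lower in KO and none was higher, beside 6.85% and 6.65% of all genes. In WT 11 of these markers rose on HFD and none fell, beside 11.8% and 12.3% of all genes. Their mean log2 level was 10.29 to 11.62 in WT on HFD, 9.17 to 9.39 in KO on HFD, 8.95 to 9.46 in WT on chow and 8.69 to 9.01 in KO on chow. Of 10 adipocyte markers 3 were higher and 1 was lower in KO on HFD, beside 6.65% and 6.85% of all genes. In WT 3 of them fell and 1 rose on HFD, beside 12.3% and 11.8% of all genes. The mean level of the adipocyte markers on HFD was 12.08 to 12.58 in WT and 12.63 to 12.71 in KO. On chow it was 12.58 to 12.63 in WT and 12.50 to 12.67 in KO. No marker was listed at 0, and the table holds no detection calls.

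Within WT on HFD all 9 enzymes were lowest on replicate 2 and highest on replicate 1. Replicate 2 was also the lowest of these 3 arrays in mean adipocyte level (12.08, against 12.58 and 12.43 on replicates 1 and 3) and the highest in mean macrophage level (11.62, against 10.29 and 11.17). The median SD of the enzymes was 0.12 in WT on HFD, 0.10 in KO on chow, 0.055 in WT on chow and 0.053 in KO on HFD, while over all genes it was 0.10 to 0.11 in each group. The enzymes were thus close to all genes in WT on HFD and KO on chow, and below them in the other groups. In bulk tissue, fewer adipocytes and less enzyme RNA per adipocyte cannot be told apart. The part of these marker shifts in the enzyme differences was not tested.

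**Figure D5:**
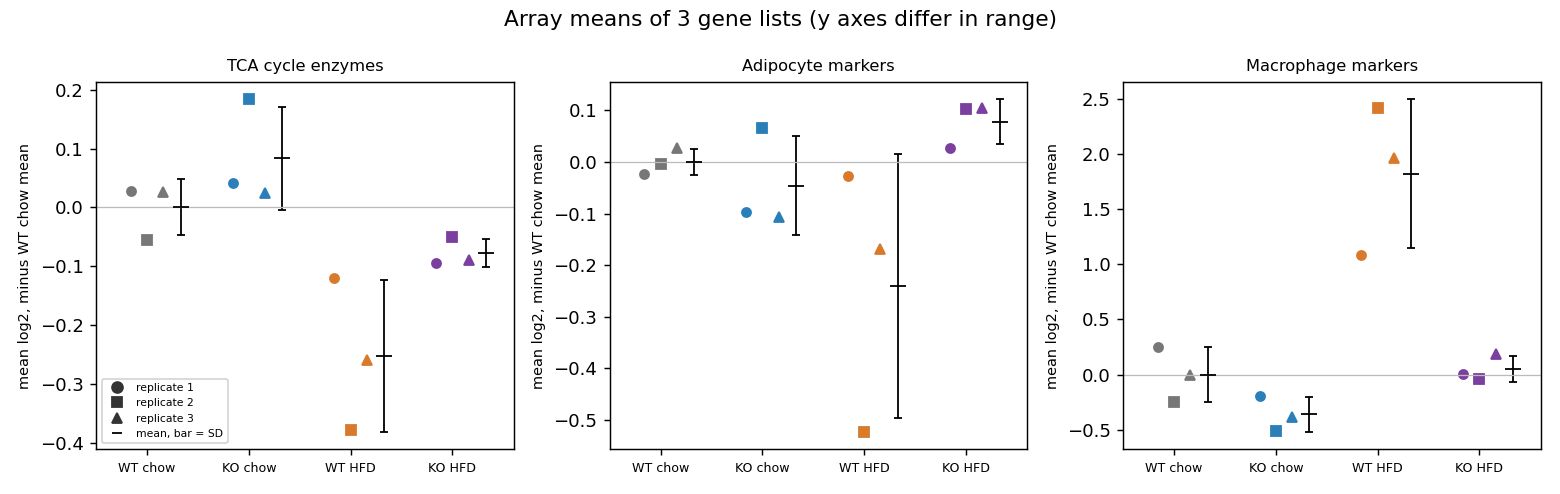
Mean log2 level of the 9 enzymes, 10 adipocyte markers and 13 macrophage markers on each array (y axis, minus the mean of WT on chow) in the 4 groups (x axis), with 1 symbol per array, the mean and an SD bar; the y axes differ in range. Replicate 2 of WT on HFD is the lowest array for the enzymes (-0.38) and the adipocyte markers (-0.52) and the highest for the macrophage markers (2.41).

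Of the other marker lists in KO against WT on HFD, 1 of 5 brown adipocyte, 1 of 4 B cell and 1 of 6 stromal progenitor markers were lower, and 1 of 5 endothelial markers was higher, beside 6.85% of all genes lower and 6.65% higher. None of 4 T cell, 5 mesothelial, 5 skeletal muscle or 4 epididymis and male tract markers passed in limma, with 1, 0, 0 and 0 at an unadjusted p under 0.05.

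The mean profile of the 9 enzymes, each centred on its own mean over the 12 arrays, ran from -0.32 on WT HFD replicate 2 to 0.25 on KO chow replicate 2. Among the members Ogdh was closest to it, with a root mean square difference of 0.039 in log2 units, and Idh3a farthest, with 0.23. The most alike other genes over the 12 arrays were Alkbh3 (0.036), Atpaf1, an assembly factor of ATP synthase (0.044), Atp5b, its beta subunit (0.049), Ndufc2 of complex I (0.051), and Dld, the dihydrolipoamide dehydrogenase component of 2-oxoglutarate and pyruvate dehydrogenase (0.052). For KO against WT on HFD the adjusted p of these most alike genes was 0.051 to 0.44 in limma, so none was called. On HFD in WT, Atpaf1, Atp5b and Ndufc2 fell (adjusted p = 0.030, 0.018 and 0.012), while Alkbh3 and Dld did not pass. The median root mean square difference over all genes was 0.19. Profiles were not scaled to each gene's own spread, so this median also reflects that spread.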

How the data were processed

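Biotin-labelled target from total RNA was hybridised to Affymetrix whole-transcript arrays, per the labels' protocols. The tool affy is named, per the submitters' processing notes. How the arrays were normalized is not given in these sources. The authors deposited 1 table of 34760 rows and 12 columns of log2 values; the base was inferred from their range, 2.09 to 14.2, and array medians lie between 5.78 and 5.92. They entered the fit unchanged and unfiltered.

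Rows were named through the platform annotation. Of 22961 annotated rows, 21640 have 1 symbol and 1321 several, which were not used, and 11799 rows are unnamed here. Where a gene had several rows the highest mean stood for it, which left 19937 genes. All 12 arrays were fitted with 4 group means in limma 3.58.1 under R 4.3.3 (8 residual degrees of freedom, eBayes, two-sided, Benjamini-Hochberg). In simulated data with shifts of 1 and 2 log2 units, the fit recovered 88% and 99% of the shifted genes. Smaller shifts, such as those of the enzymes, were not simulated. All 9 members are named, and of each list up to 4 genes with the smallest p for KO against WT on HFD. Members, lists and tests were chosen with earlier results of these data known. Alternatives were a filter on dim rows, quantile normalization, array weights, a trended robust variance prior, averaged rows, a replicate block, only the compared groups, and leaving out each array.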

Additional observations from a re-analysis of the deposited data

How the results depend on the processing

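The difference of each enzyme in KO against WT on HFD, and for HFD against chow in either genotype, kept its direction in every setting run. On chow the near-zero differences of Ogdh (-0.014 to 0.050) and Mdh2 (-0.0056 to 0.079) changed sign without single arrays, as did the interactions of Cs (-0.083 to 0.13) and Mdh2 (-0.010 to 0.12). Leaving out 1 array at a time, the number of enzymes that passed was 0 to 5 for KO against WT on HFD, 3 to 7 for HFD in WT, 0 to 1 for HFD in KO (Idh3b) and 0 to 1 for the interaction (Idh3g). For the 58 list genes it was 6 to 28, 19 to 33, 1 to 14 and 0 to 9, and for all genes 904 to 3930, 3072 to 5285, 62 to 1509 and 0 to 2060, with 0 to 1 for KO on chow.

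When a fit held the compared groups alone, 0 enzymes, 0 list genes and 4 genes in all passed for KO against WT on HFD. The same counts were 3, 20 and 3372 for HFD in WT and 0, 5 and 585 for HFD in KO. The fit of all arrays called 2691, 4802 and 1264 genes for these comparisons, in the same order. Each smaller fit has fewer residual degrees of freedom, but the loss of calls was unequal. Why it was largest for KO against WT on HFD was not tested. With array weights, 7 enzymes (6 higher and 1 lower), 40 list genes and 7648 genes passed for KO on HFD, 48 list genes and 9985 genes for HFD in WT, 20 and 2137 for HFD in KO, and 1 enzyme, 11 list genes and 2819 genes for the interaction. The weights did not converge and gave WT HFD replicate 3 a weight of 20.0, against 0.376 to 1.68 for the others. Without dim rows 1 list gene and 75 genes passed for the interaction, against 0 and 1 with all rows.

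Same-numbered arrays of different groups did not deviate together more than others: their 18 correlations ran from -0.41 to 0.38, with 4 above 0.1. The 36 correlations between differently numbered arrays of different groups ran from -0.48 to 0.43, with 11 above 0.1. With so few arrays a group, these correlations cannot tell whether the replicate number marks a shared batch or a pairing. With the replicate block 1 enzyme passed for KO on HFD, 0 enzymes and 740 genes for HFD in KO, and 0 genes for the interaction. Probe sets without detection calls could not be set against background.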

Other observations

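The genes given here were chosen after their values were seen. Ogdhl, a relative of Ogdh, fell by 1.10 ± 0.26 on HFD in WT (adjusted p = 0.011). In KO the difference was -0.9998 ± 0.26 (adjusted p = 0.046), and no gene of its list passed in KO when replicate 1 or 3 of WT or KO on chow, replicate 3 of WT on HFD, or replicate 2 or 3 of KO on HFD was left out, with the replicate block, or with the KO arrays fitted alone. Pdk1, a kinase that inhibits pyruvate dehydrogenase, lay at 8.77 to 8.97 in WT and 9.07 to 9.34 in KO on chow, and at 7.82 to 8.24 in WT and 8.14 to 8.36 in KO on HFD. Its diet difference was -0.80 ± 0.12 in WT (adjusted p = 0.0015). The same difference in KO was -0.96 ± 0.12 (adjusted p = 0.0042). The related kinase Pdk4 had 0.59 ± 0.31 in WT (adjusted p = 0.20), the opposite sign. It had 1.15 ± 0.31 in KO (adjusted p = 0.051).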
